A study of Mus musculus with 6 samples.

Results

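The 10 genes described here are widely used markers of macrophages and neutrophils: Lyz2, Csf1r, Cd68, Adgre1, Marco, Mrc1, Itgax, Chil3, S100a8 and S100a9. They were taken by symbol from the 52636 genes of a count table of sorted lung innate lymphoid cells (ILCs), and all 10 were found. RNA sequencing was done on KLRG1-positive cells (3 libraries, called ILC2 in the labels and KLRG1-high in the protocol) and on KLRG1-negative cells (3 libraries). KLRG1 is a lectin-like receptor of activated ILC2, the lymphocytes that make type 2 cytokines. All mice were wild-type C57BL/6 animals with a green fluorescent protein reporter of interleukin-4 (4get), were injected intraperitoneally with 500 ng of interleukin-33 for 4 days and were killed on day 5. Both sorts were lineage-negative and CD90-positive to a high stated purity, but the lineage panel and the age and number of mice are not given in the sources used here. From how many animals each sort was taken is not stated, so p-values cover the spread among these libraries alone, which may be technical.

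Macrophages of the lung are of several kinds: alveolar macrophages live in the airspaces and clear surfactant, and interstitial macrophages and monocytes lie in the tissue. Neutrophils are short-lived phagocytes whose cytoplasm is rich in the S100A8 and S100A9 proteins. Interleukin-13 made by ILC2 drives macrophages into the alternatively activated state, in which they make the chitinase-like protein encoded by Chil3. None of these genes is a defining gene of ILCs. In bulk libraries fewer cells of a type and less RNA per cell cannot be told apart.

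Lyz2 and Chil3 have near-identical neighbours, and reads that align to more than 1 place were left out of the deposited counts, so sequence decides how much of each gene could be counted. Lyz1 lies 5475 bases from Lyz2 on chromosome 10, and the coding sequences, 444 bases each, were 95% identical, with a longest shared run of 118 bases. Chil4 lies 33925 bases from Chil3 on chromosome 3, and their coding sequences of 1194 and 1206 bases were 95.4% identical over the aligned part, with a longest shared run of 136 bases. The stretch of 60 coding bases in which each pair differs most is shown from GENCODE M21 transcripts (GRCm38), with differing bases in capitals. These are bases by which a read can be given to 1 gene of the pair.
Lyz2 (coding bases 61 to 120): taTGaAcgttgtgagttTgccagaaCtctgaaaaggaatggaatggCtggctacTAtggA
Lyz1 (coding bases 61 to 120): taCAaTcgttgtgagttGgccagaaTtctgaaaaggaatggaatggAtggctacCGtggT
Chil3 (coding bases 500 to 559): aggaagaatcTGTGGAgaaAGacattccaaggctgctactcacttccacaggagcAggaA
Chil4 (coding bases 500 to 559): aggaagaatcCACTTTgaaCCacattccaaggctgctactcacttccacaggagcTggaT

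Of all 50-base words in the annotated transcripts, 15.4% of those of Lyz2 also occurred in Lyz1, and 26.9% of those of Chil3 occurred in Chil4 or Gm6522. Csf1r shared 14.3% with Hmgxb3, and Itgax shared 8.02% with its relative Itgad. The other 6 genes shared 0 such words with any other annotated gene. Levels of Lyz2, Chil3, Csf1r and Itgax may therefore be undercounted, by how much is not known since the read length is not stated.

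All 10 marker genes had counts in both sorts, and none passed the test for a difference between the sorts. Of the 10 genes, all of which passed the filter on low counts, 0 were higher and 0 were lower in KLRG1-positive cells at an adjusted p below 0.05 (edgeR quasi-likelihood, adjusted over 15197 genes), against 0.125% and 1.21% of all genes tested (1.34% in either direction). Their adjusted p ranged between 0.221 and 0.986. At an unadjusted p below 0.05, 0 were higher and 2 lower, Cd68 and Mrc1, against 4.19% and 11.5% of all genes. DESeq2 called 0 higher and 1 lower, Mrc1 (0 with the block), where it called 2.29% and 9.11% of genes. The median log2 fold change of the 10 genes was -0.50, against -0.05 over all genes tested. Standard errors were wide, between 0.39 and 2.13 on the log2 scale, and these data do not show that the sorts were alike.

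**Figure D1:**
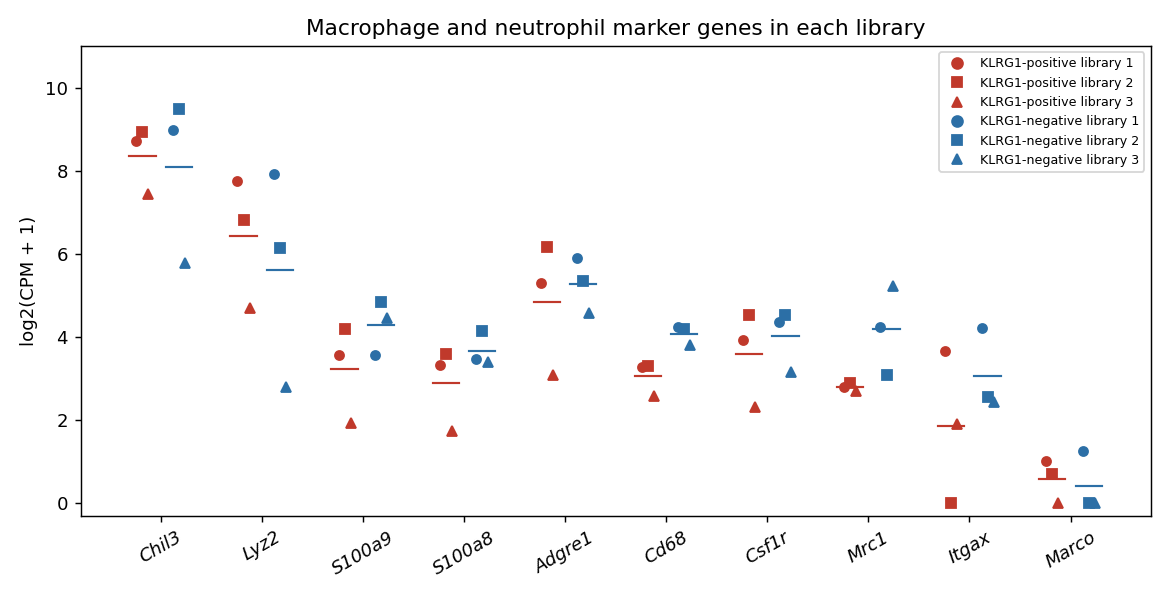
Levels of the 10 marker genes as log2(CPM + 1), where CPM is counts scaled to a library of equal depth, in the 3 KLRG1-positive (red) and 3 KLRG1-negative (blue) libraries; bars are means of the plotted values, and genes are ordered by level per length. KLRG1-positive library 3 was the lowest of its sort for 9 of the 10 genes. For how many of all genes it was lowest was not counted. The sorts overlapped for 8 of the 10, where 24.6% of all genes tested did not overlap.

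The 10 genes together made up 0.0751, 0.0721 and 0.0218% of counts in KLRG1-positive libraries 1, 2 and 3, and 0.0901, 0.0979 and 0.0168% in KLRG1-negative libraries 1, 2 and 3. Chil3 and Lyz2 made up most of this in 5 libraries, and without them the other 8 genes took 0.0102, 0.0135 and 0.00288% in KLRG1-positive and 0.0155, 0.0144 and 0.011% in KLRG1-negative libraries. Without these 2 genes KLRG1-negative library 3 was closer to the others of its sort. Per length, the order in TPM (counts divided by gene length and scaled to the same total in each library), as means over all 6 libraries, was Chil3 at 728, Lyz2 at 254, S100a9 at 86.4, S100a8 at 42.2, Adgre1 at 36.4, Cd68 at 27.6, Csf1r at 9.21, Mrc1 at 5.86, Itgax at 4.20 and Marco at 0.783 TPM. Within a sort the spread was wide, and each gene's range over the 6 libraries overlapped that of the next in this order. Chil3 stood above 99.2% of the 16089 detected protein-coding genes, Lyz2 above 96.7%, Csf1r above 48.1% and Marco above 22.4%.

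Chil3 encodes YM1, a chitinase-like protein secreted by alveolar and alternatively activated macrophages (ENSMUSG00000040809, GRCm38 chromosome 3, 106147554 to 106167564, minus strand). It stood at 418, 484 and 172 CPM in KLRG1-positive libraries 1, 2 and 3, and at 501, 717 and 54.1 CPM in the KLRG1-negative ones. In each sort library 3 was the lowest, and the sorts overlapped. The log2 fold change was -0.25 ± 0.86 (SE, n = 3 per sort; adjusted p = 0.947), and it turned to 0.25 with the replicate number as a block (adjusted p = 0.848).

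Lyz2 encodes lysozyme of macrophages, monocytes and neutrophils, and is also made by alveolar type II epithelial cells (ENSMUSG00000069516, chromosome 10, 117277331 to 117282321, minus strand). It stood at 214, 112 and 24.9 CPM in KLRG1-positive libraries 1, 2 and 3, and at 240, 69.0 and 5.94 CPM in the KLRG1-negative ones. The 6 libraries spanned a 40.4-fold range, in which libraries 1 of both sorts were the highest and libraries 3 the lowest. The log2 fold change was 0.16 ± 1.24 (SE, n = 3 per sort), with a 95% interval of -2.86 to 3.17 and an adjusted p of 0.977. The surfactant gene Sftpc, a type II cell marker, stood at 329, 0.373 and 0.399 CPM in KLRG1-positive libraries and at 365, 2.32 and 1.15 CPM in KLRG1-negative ones. It was thus high only in the libraries numbered 1, and its part in the Lyz2 level there was not tested.

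Csf1r, Adgre1 and Cd68 mark the monocyte and macrophage lineage in general. Csf1r, the receptor of the growth factor CSF1, stood at 14.1, 22.2 and 3.99 CPM across KLRG1-positive and at 19.7, 21.9 and 7.86 CPM in KLRG1-negative libraries 1, 2 and 3 (log2 fold change -0.30 ± 0.70 SE, adjusted p = 0.913). Adgre1, which encodes the F4/80 antigen of mouse macrophages and eosinophils, stood at 38.6, 70.1 and 7.45 CPM across KLRG1-positive and at 58.7, 39.8 and 22.8 CPM in KLRG1-negative libraries (-0.07 ± 0.77, adjusted p = 0.986). For both genes library 3 was the lowest of each sort, and the sorts overlapped.

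Cd68 encodes an endosomal glycoprotein of phagocytes (chromosome 11, 69664213 to 69666153, minus strand) and had the narrowest range of the 10 genes over the 6 libraries, 3.54-fold. It stood at 8.66, 8.85 and 5.01 CPM in KLRG1-positive libraries, and at 17.8, 17.2 and 13.0 CPM in KLRG1-negative ones. Every KLRG1-positive library lay below every KLRG1-negative one, as for 15.1% of all genes tested (9.49% lay wholly above). The means were 7.51 ± 2.17 CPM across KLRG1-positive and 16 ± 2.57 CPM across KLRG1-negative libraries (SD, n = 3), a log2 fold change of -1.09 ± 0.39 (SE; adjusted p = 0.241, and 0.0608 by DESeq2). It did not pass either test.

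Mrc1, Marco and Itgax mark macrophage subsets. Mrc1 encodes the mannose receptor CD206 of alveolar and alternatively activated macrophages, also found on lymphatic endothelium (chromosome 2, 14229392 to 14332057, plus strand). It stood at 5.96, 6.45 and 5.54 CPM in KLRG1-positive libraries, and at 17.8, 7.55 and 36.3 CPM in KLRG1-negative ones. The KLRG1-positive libraries were nearly equal. All lay below the KLRG1-negative ones, as for 15.1% of all genes tested. The KLRG1-negative libraries differed widely among themselves. The log2 fold change was -1.78 ± 0.60 (SE, n = 3 per sort; adjusted p = 0.221 by edgeR, and 0.0449 by DESeq2, where it passed, but 0.0971 by DESeq2 with the replicate number as a block). Without KLRG1-negative library 3 it was -1.07 by edgeR (adjusted p = 0.421).

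Marco, a scavenger receptor of alveolar macrophages, was nearly absent, with 18, 12 and 0 counts in KLRG1-positive libraries 1, 2 and 3, and 25, 0 and 0 counts in KLRG1-negative ones. Scaled for library size, the ratio of the summed counts, 30 in KLRG1-positive and 25 in KLRG1-negative cells, was 1.31 (exact counting interval 0.743 to 2.32). A library with 0 counts can still hold a level under that of 3 counts, and intervals cover counting error only. Itgax, the CD11c integrin chain of alveolar macrophages and dendritic cells, stood at 11.6, 0 and 2.75 CPM in KLRG1-positive libraries, and at 17.6, 4.91 and 4.41 CPM in KLRG1-negative ones (log2 fold change -0.91 ± 1.59 SE, adjusted p = 0.875). Library 1 was the highest of each sort. Its integrin partner Itgb2, which all leukocytes use, stood at 1088 ± 94 CPM across KLRG1-positive and 934 ± 190 CPM across KLRG1-negative libraries (SD, n = 3). The log2 fold change of Itgb2 was 0.22, with a 95% interval of -0.26 to 0.69 (adjusted p = 0.704).

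S100a8 and S100a9 encode the subunits of calprotectin, an abundant protein of neutrophils and monocytes, and lie 22596 bases apart on chromosome 3. S100a8 stood at 9, 11 and 2.35 CPM in KLRG1-positive libraries 1, 2 and 3, and at 10, 16.8 and 9.54 CPM in KLRG1-negative ones (log2 fold change -0.71 ± 0.64 SE, adjusted p = 0.704). S100a9 stood at 10.9, 17.4 and 2.84 CPM in KLRG1-positive libraries, and at 10.9, 27.8 and 21 CPM in KLRG1-negative ones (-0.94 ± 0.71, adjusted p = 0.628). Library 2 was the highest of each sort for both genes, and the sorts overlapped.

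**Figure D2:**
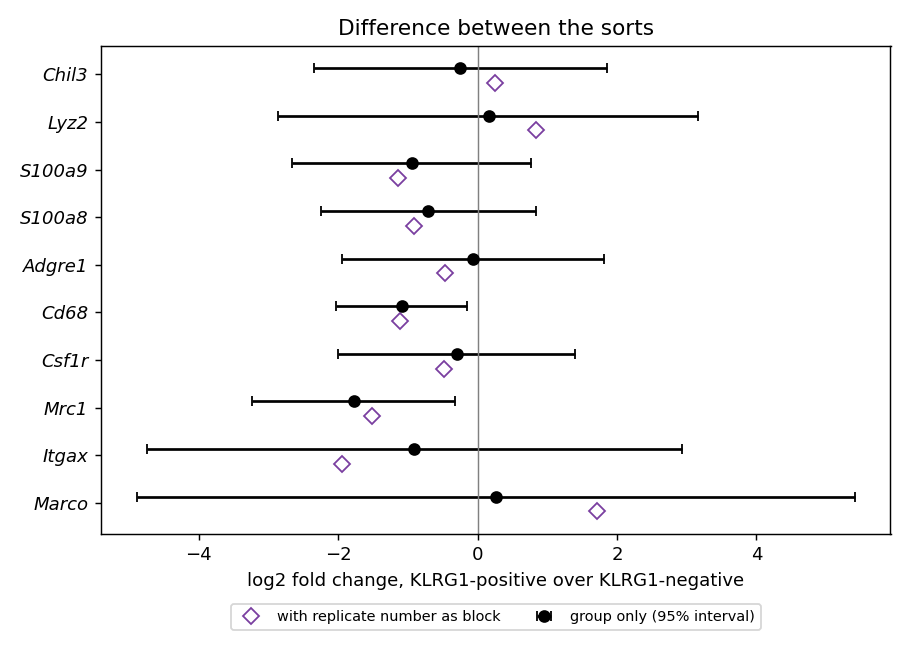
Log2 fold change of each marker gene, KLRG1-positive over KLRG1-negative cells, by edgeR with the 95% interval of the test (black), and with the replicate number as a block (open diamonds). The intervals of Cd68 (-2.03 to -0.15) and Mrc1 (-3.24 to -0.32) lie below 0 before adjustment, and the other 8 include 0.

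In 8 of the 10 genes the replicate number of the libraries took a larger share of the variation than the sort did. The sum of squares of log2 CPM over the 6 libraries was split into the sort, the replicate number and the rest. The number took 88.6% for Lyz2, 88.1% for Csf1r, 83.4% for Chil3, 76.3% for Marco, 73.6% for Adgre1, 53.5% for Itgax and 51.8% for S100a8, and the sort 5.37, 6.88, 1.23, 5.67, 4.75, 22.6 and 28.1% in the same order of genes. The medians over all 15197 genes tested were 43.9% for the number and 21.6% for the sort. The number has more degrees of freedom than the sort, so it takes the larger share more often even where neither has an effect. For how many of all genes it did so was not counted. Cd68 and Mrc1 were the 2 genes in which the sort took more, 77.5% and 56.5%, than the number, 20.5% and 17.6%. For S100a9 the shares were nearly level, 31.4% for the sort and 35.1% for the number. These shares describe 6 libraries and were not tested. The labels do not say what libraries of 1 number share.

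**Figure D3:**
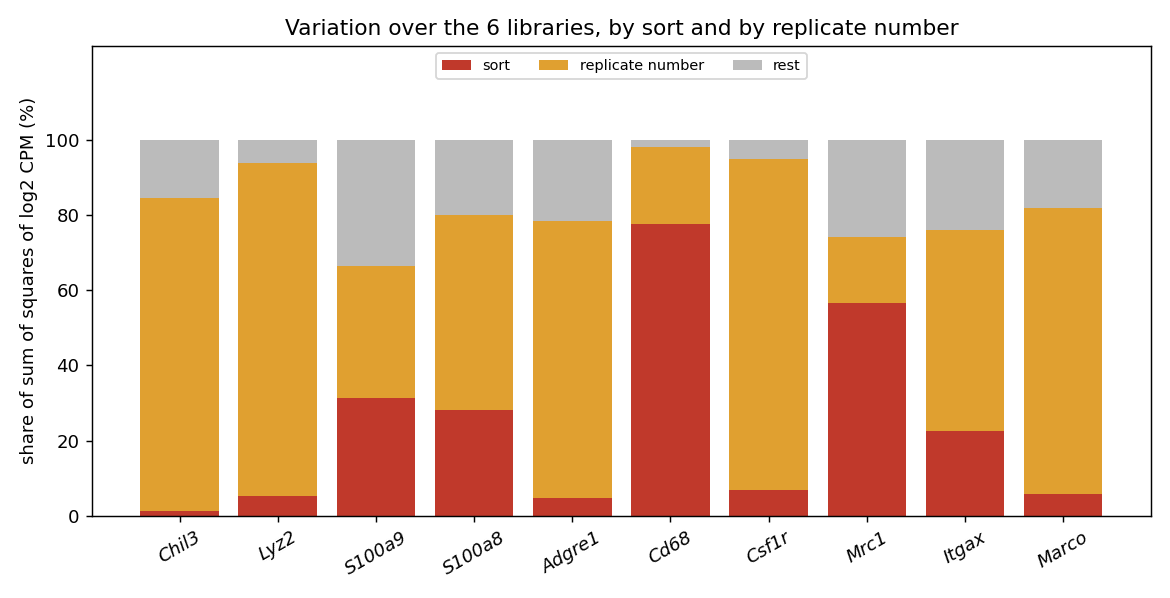
Share of the sum of squares of log2 CPM over the 6 libraries taken by the sort (red), the replicate number (ochre) and the rest (grey), in percent, for each marker gene. The ochre part exceeds the red part in 8 of the 10 genes, all but Cd68 and Mrc1. The number has more degrees of freedom than the sort, which favours the ochre part.

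Between libraries of the same number, 5 of the 10 genes had a lower CPM in the KLRG1-positive library in all 3 pairs, Cd68, Mrc1, Itgax, S100a8 and S100a9, against 25% of all genes tested. For S100a9 the pair numbered 1 was all but equal, with 193 counts in the KLRG1-positive and 196 in the KLRG1-negative library. In Cd68 the log2 differences, KLRG1-positive minus KLRG1-negative, were alike at -1.03, -0.95 and -1.36 for numbers 1, 2 and 3. In Lyz2 they were -0.16, 0.70 and 2.05, and in Chil3 -0.26, -0.57 and 1.67. For these last genes the pair numbered 3, in which both levels were low, went the other way from the pair numbered 1. With the number as a block, 0 of the 10 genes passed, and the adjusted p ranged between 0.193 and 0.848 (0% of all genes higher and 0.349% lower in that fit).

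Ratios between partner genes within a library do not depend on depth or scaling. Counts of Lyz2 over those of Lyz1 were 7.10, 8.61 and 8.92 in KLRG1-positive libraries 1, 2 and 3, and 7.34, 10.2 and 8.27 in KLRG1-negative ones. While Lyz2 ranged over 40.4-fold, this ratio stayed between 7.10 and 10.2, although the exact intervals of KLRG1-positive library 1 (6.48 to 7.78) and KLRG1-negative library 2 (from 8.72) did not overlap. Counts of Chil3 over those of Chil4 were 22.7, 23.2 and 21.8 in KLRG1-positive libraries, and 19.2, 19.4 and 5.67 in KLRG1-negative ones. KLRG1-negative library 3 stood apart, with an exact counting interval of 4.88 to 6.63, from 1129 and 199 counts. There Chil4 had 9.54 CPM, close to the 7.89 CPM of KLRG1-positive library 3, and Chil3 was lower.

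Counts of S100a9 over those of S100a8 were 1.21, 1.58 and 1.21 in KLRG1-positive libraries, and 1.08, 1.65 and 2.20 in KLRG1-negative ones. The intervals of KLRG1-negative libraries 1 (0.880 to 1.33) and 3 (1.86 to 2.62) did not overlap. Counts of C1qb over those of C1qc, chains of complement C1q made by tissue macrophages, were 2.57, 2.4 and 2.05 in KLRG1-positive libraries, and 3.05, 1.12 and 0 in KLRG1-negative ones. The last rests on 0 counts of C1qb and 11 of C1qc in KLRG1-negative library 3, where Lyz2 and Chil3 were also at their lowest.

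**Figure D4:**
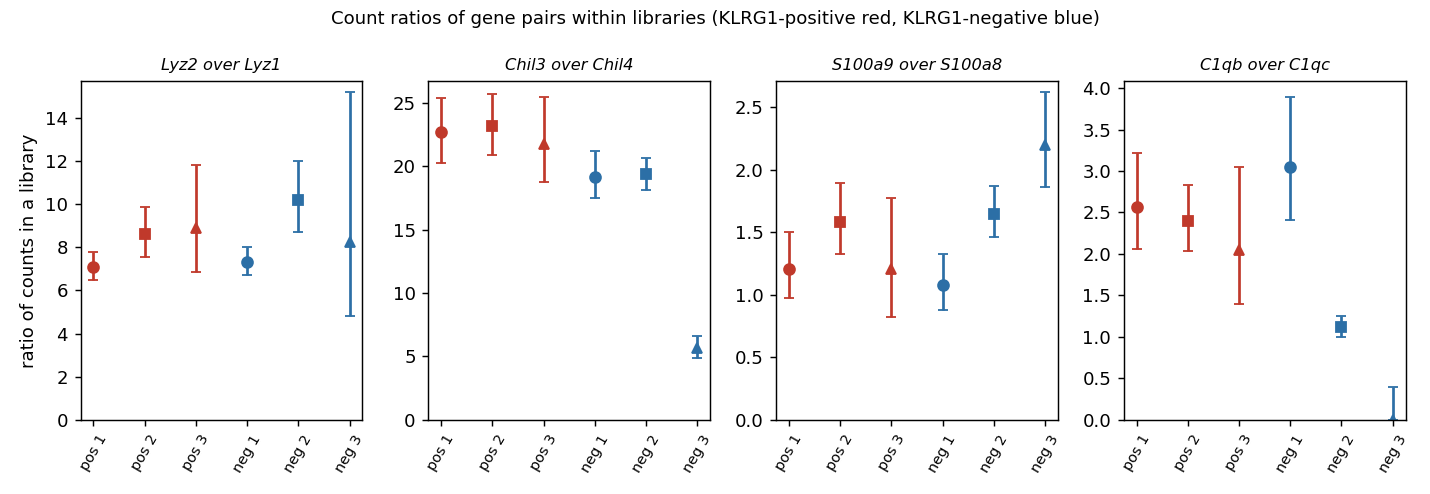
Ratio of the counts of 2 genes in each library, for 4 gene pairs, with exact 95% counting intervals; KLRG1-positive libraries are red and KLRG1-negative ones blue. Chil3 over Chil4 lies between 19.2 and 23.2 in 5 libraries and at 5.67 in KLRG1-negative library 3.

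Genes of defined myeloid cell types were read beside the 10 markers from 8 lists of known genes, 79 genes in all. Of the 55 that passed the filter on low counts, edgeR called 0 higher and 0 lower in KLRG1-positive cells, against 0.125% and 1.21% of all genes. DESeq2 called 3 higher (Pparg, Ccr3 and Xcr1) and 8 lower (Apoe, Ly6c2, Lpl, Spi1, Irf8, Tyrobp, Csf2rb and Il34), against 2.29% and 9.11% of all genes. With the replicate number as a block, a fit chosen after seeing the data, DESeq2 also called Il1r2 and Csf2 higher. It also called Fabp4, Car4, Cx3cr1, Fcgr3, Csf3r, Cxcr2 and Il5ra lower. Over all genes that fit called 609 higher and 1697 lower.

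Some genes held to define a cell type were at or near 0, while other genes of the same lists had clear counts; both were picked for mention after their values were seen. Fcgr1, the CD64 receptor of macrophages, had 1 count in KLRG1-positive and 0 counts in KLRG1-negative cells, Folr2 of tissue-resident macrophages 5 and 5, and Siglecf of alveolar macrophages and eosinophils 22 and 21. Ly6g, which defines mouse neutrophils, had 0 counts in KLRG1-positive cells, where 3 counts would be 0.0508 CPM, and 3 counts in KLRG1-negative cells. The eosinophil peroxidase gene Epx and the alveolar macrophage gene Cidec had 0 counts in all 6 libraries, and the neutrophil elastase gene Elane had 0 in KLRG1-positive and 16 in KLRG1-negative cells. Among genes with clear counts, the fractalkine receptor gene Cx3cr1 averaged 31.5 ± 31.5 CPM in the KLRG1-positive sort and 63.4 ± 15 CPM in the KLRG1-negative sort (SD, n = 3). The endotoxin co-receptor gene Cd14 averaged 14.5 ± 12.7 CPM in the KLRG1-positive sort and 21.8 ± 17 CPM in the other. The Fc receptor gene Fcgr3 averaged 8.94 ± 4.22 and 25.2 ± 10.4 CPM in KLRG1-positive and KLRG1-negative libraries, and the G-CSF receptor gene Csf3r 4.54 ± 2.21 and 12.3 ± 7.12 CPM. None of these 4 genes passed in edgeR, or in DESeq2 without the replicate block. In DESeq2 with the block Cx3cr1, Fcgr3 and Csf3r passed (adjusted p = 0.0438, 0.0111 and 0.0381), and Cd14 did not (0.275).

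Of 12 alveolar macrophage genes, 6 were tested and 0 passed in either direction (median log2 fold change -1.32). The most abundant were Pparg, a nuclear receptor of alveolar macrophages that ILC2 also express, and Car4, a carbonic anhydrase also of capillary endothelium. Pparg stood at 194, 223 and 265 CPM across KLRG1-positive and at 8.99, 69.6 and 70.4 CPM in KLRG1-negative libraries, without overlap (2.19 ± 0.72 SE, adjusted p = 0.210, and 0.0187 by DESeq2). Car4 averaged 7.83 ± 8.75 CPM across KLRG1-positive and 57.4 ± 31.1 CPM across KLRG1-negative libraries (SD, n = 3; adjusted p = 0.396). In Pparg every KLRG1-positive library was above every KLRG1-negative one, as for 9.49% of all genes tested. In Mrc1 and Cd68 every one was below, as for 15.1%.

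Of 16 monocyte and interstitial macrophage genes, 12 were tested, 0 passed in either direction, and 11 had negative log2 fold changes (median -0.62; 53.5% of all genes were negative). The summed level of this list was 64.6 to 179 CPM across KLRG1-positive and 364 to 591 CPM in KLRG1-negative libraries. Ly6c2, of inflammatory monocytes and also of T and plasma cells, stood at 54.6, 7.41 and 26.2 CPM across KLRG1-positive and at 398, 124 and 91.5 CPM in KLRG1-negative libraries (-2.80 ± 0.89 SE, adjusted p = 0.193, and 0.00814 by DESeq2). Apoe, the lipid carrier of macrophages and also of stromal cells, stood at 10.7, 7.79 and 3.77 CPM across KLRG1-positive and at 40.2, 238 and 187 CPM in KLRG1-negative libraries (-4.39 ± 0.78, adjusted p = 0.0598, and 3.54e-08 by DESeq2). Among KLRG1-negative libraries Ly6c2 was highest in library 1 and lowest in library 3, as was Lyz2, whereas Apoe was lowest in library 1.

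Of 8 genes of alternative activation, 7 were tested and 0 passed (median log2 fold change -0.33). Retnla, which encodes RELM-alpha, stood at 62.2, 174 and 37.6 CPM across KLRG1-positive and at 96.2, 226 and 20.5 CPM in KLRG1-negative libraries (adjusted p = 0.927). As for Chil3, library 2 was the highest and library 3 the lowest of each sort. Chil4 averaged 15.7 ± 6.91 CPM across KLRG1-positive and 24.2 ± 13.8 CPM across KLRG1-negative libraries (SD, n = 3; adjusted p = 0.732).

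Of 17 neutrophil genes, 11 were tested and 0 passed (9 negative log2 fold changes, where 53.5% of all genes were negative, median -1.26). The most abundant was Il1r2, the decoy receptor of interleukin-1, at 133, 177 and 547 CPM across KLRG1-positive and at 8.60, 110 and 138 CPM in KLRG1-negative libraries (adjusted p = 0.503), and it was highest where S100a8 was lowest. In KLRG1-positive libraries Il1r2 made up most of the summed level of this list, 180, 239 and 560 CPM. Its log2 fold change was 1.73 ± 1.01 (SE), where 9 of the 11 tested genes were negative. Mmp9, a gelatinase, stood at 17.3, 26.4 and 4.35 CPM across KLRG1-positive and at 9.15, 10.5 and 0 CPM in KLRG1-negative libraries (adjusted p = 0.797). Of 5 eosinophil genes, 2 were tested and 0 passed: the eotaxin receptor gene Ccr3 averaged 41.8 ± 7.44 CPM across KLRG1-positive and 2.01 ± 2.59 CPM across KLRG1-negative libraries (adjusted p = 0.175), and Il5ra 3.13 ± 3.37 and 40.1 ± 32.7 CPM (SD, n = 3; adjusted p = 0.314). DESeq2 called Ccr3 higher (adjusted p = 0.00203).

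Of 7 dendritic cell genes, 5 were tested and 0 passed (median log2 fold change 0.23). Xcr1, a chemokine receptor of cross-presenting dendritic cells, averaged 32.7 ± 12 CPM across KLRG1-positive and 12.1 ± 1.53 CPM across KLRG1-negative libraries (SD, n = 3; adjusted p = 0.112, and 0.00466 by DESeq2), while Zbtb46 averaged 2.55 ± 0.565 and 8.96 ± 8.20 CPM (adjusted p = 0.343). Of 10 myeloid regulators and adaptors, 9 were tested, 0 passed and 7 had negative log2 fold changes (median -0.82, where 53.5% of all genes were negative). The transcription factor gene Irf8, of monocytes, dendritic cells and B cells, averaged 26.1 ± 9.37 CPM across KLRG1-positive and 73.9 ± 39.9 CPM across KLRG1-negative libraries (adjusted p = 0.206, and 0.0385 by DESeq2).

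Of the 4 genes for myeloid growth factors, 3 were tested and 0 passed (median log2 fold change -1.07). Csf1, a ligand of the Csf1r product, averaged 33.7 ± 20.2 CPM across KLRG1-positive and 70.7 ± 20.5 CPM across KLRG1-negative libraries (SD, n = 3; adjusted p = 0.371). Csf2, which encodes GM-CSF and is made by ILC2, stood at 67.5, 135 and 92.9 CPM across KLRG1-positive libraries. In KLRG1-negative libraries it stood at 2.50, 38.2 and 34.7 CPM, without overlap (adjusted p = 0.371). Of all genes tested, 9.49% lay wholly above in KLRG1-positive libraries. Il34, the other ligand of that receptor and chosen for mention after its values were seen, had 0 counts in KLRG1-positive and 264 in KLRG1-negative cells (adjusted p = 0.0607, and 9.73e-07 by DESeq2). Against a floor of 3 counts over the group, its level was at least 80.7-fold lower in the KLRG1-positive sort.

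**Figure D5:**
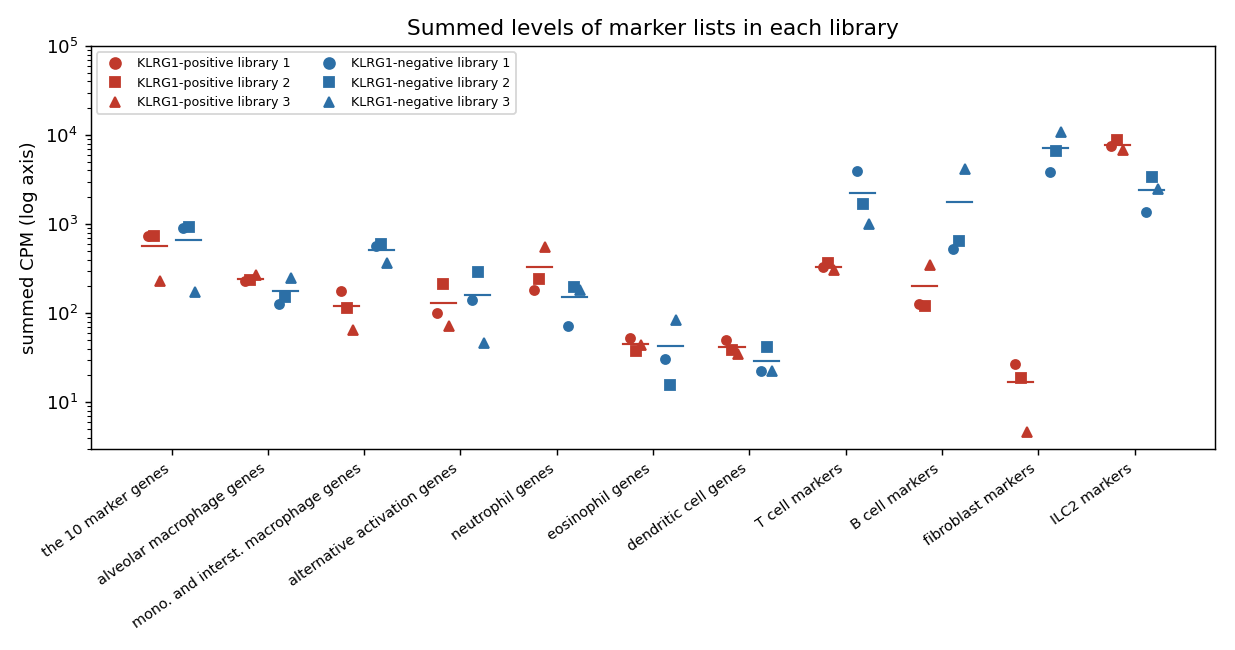
Summed CPM (log axis) of the 10 marker genes and of the marker lists in each KLRG1-positive (red) and KLRG1-negative (blue) library; bars are means. The 10 genes sum to 227 to 733 CPM across KLRG1-positive and 175 to 921 CPM in KLRG1-negative libraries, and overlap, while the monocyte, T cell, B cell, fibroblast and ILC2 lists do not. The lists were chosen with earlier results of these data known, and the ILC2 list includes Klrg1, on which the cells were sorted. In KLRG1-positive libraries Il1r2 makes up most of the neutrophil sum, and Pparg most of the alveolar macrophage sum.

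Summed markers of several other cell types separated the sorts, where the sum of the 10 genes did not. The 10 genes and the lists were chosen with earlier results of these data known, so this contrast is a description only. Without Chil3 and Lyz2, the macrophage genes among the 10 summed to 79.9, 108 and 24.7 CPM in KLRG1-positive libraries 1, 2 and 3, and to 133, 91.4 and 84.4 CPM in KLRG1-negative ones, which also overlapped. Assigned counts were 17323004 to 23946073 per library, and Klrg1, on which the cells were sorted, stood at 1326 to 1784 CPM across KLRG1-positive and 13.1 to 192 CPM in KLRG1-negative libraries. Summed levels in KLRG1-positive and KLRG1-negative libraries were 307 to 364 and 1006 to 3991 CPM for 7 T cell markers, 121 to 350 and 525 to 4181 CPM for 6 B cell markers, 4.66 to 26.8 and 3838 to 10746 CPM for 6 fibroblast markers, and 6810 to 8702 and 1354 to 3392 CPM for 8 ILC2 markers including Klrg1. Klrg1 was the sorted gene, so its part in the ILC2 difference was fixed by the sort. The other ILC2 markers except Il7r also lay wholly above in KLRG1-positive libraries, as did 9.49% of all genes. Of the markers in these lists, 1 T cell marker (Cd28) and 5 fibroblast markers (Col1a1, Col1a2, Col3a1, Dcn and Lum) were lower in KLRG1-positive cells. The test called 0 of the others, and 1.21% of all genes tested were lower. With the block, the lower ones included Trac, Cd3e, Cd3d, Cd79a, Ms4a1, Ebf1 and Lum, where 0.349% of all genes tested were lower. The epithelial list, 11.8 to 521 CPM across KLRG1-positive and 83.6 to 580 CPM in KLRG1-negative libraries, overlapped, and 0 of its 5 tested genes passed. The part of any of these cells in the levels of Cd68 and Mrc1 was not tested.

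A search for like patterns covered 9114 protein-coding genes with a mean of at least 10 CPM and left out the 10 marker genes themselves. Among the genes searched, the pattern over the 6 libraries most like that of Lyz2 was that of Lyz1 (Pearson r = 0.996 of log2 CPM). Rhot2 (0.995) and Nub1 (0.994) followed. Lyz1 varied as widely as Lyz2, at 30.2, 13.0 and 2.79 CPM across KLRG1-positive and 32.7, 6.76 and 0.719 CPM in KLRG1-negative libraries, while Rhot2 stayed between 14.8 and 26.8 CPM. For Csf1r the nearest were Dyrk1a (0.992), Diaph1 (0.987) and Serpinb2 (0.978), and for S100a8 Calcoco1 (0.986), Cbx6 (0.976) and Tspyl1 (0.975). All genes share the same 6 libraries and their depths, and r is given as a description, without a test.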

How the data were processed

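The authors deposited raw counts of reads per gene, made with featureCounts 1.5.2 on Ensembl release 90 gene models of GRCm38, without strand, on single reads; reads with several alignments or several genes were not counted, per the file headers. Beside it, bcl2fastq, STAR 2.4.1d and Subread 1.5.2 are listed in the submitters' processing notes. Multi-mapping reads were 26.3 to 32.3% of the entries in the deposited counting summary. Gene length is another column of the deposited table, used for TPM. Per the labels' protocols, SMARTer chemistry for low input gave the cDNA, which Nextera XT fragmented and tagged, a method that does not mark strand. Symbols came from GENCODE M21, in which 52489 identifiers were found.

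Counts were tested with edgeR 4.0.16 (R 4.3.3; quasi-likelihood F test, robust, TMM factors, filterByExpr by group), with Benjamini-Hochberg adjustment over all 15197 genes kept and a threshold of 0.05, two-sided; an adjusted p with no other name is from this test. CPM used TMM-scaled totals of all assigned counts, and log2 CPM a prior count of 2. Fold changes are KLRG1-positive over KLRG1-negative. DESeq2 1.42.0, other scalings, no filter, left-out libraries and the replicate block were alternatives. Scripts were tested on simulated data, in which 200 of 15197 genes were changed. There the edgeR test called 15% of the genes changed 4-fold and 65% of those changed 16-fold, with 2 unchanged genes called. It can thus miss most changes of 4-fold. Counting intervals are exact binomial (SciPy 1.17.1), at 95%, and cover counting error only. Paralogs were aligned with Biopython 1.88.

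After subtracting group means, libraries of the same number correlated across genes (0.38, 0.34 and 0.19 for numbers 1, 2 and 3). Libraries of different numbers from the 2 sorts gave -0.32 to 0.06, and subtracting the means ties these values to one another. The numbers were read as pairing the libraries, a reading that comes from the data. The main test had the sort as its only term, and the replicate block was an alternative. Libraries of a sort differed far beyond sampling noise (chi-square per degree of freedom of 91.2 or more).

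The 10 genes and the lists were chosen with earlier results of these data known. Beyond the 10 genes, the rule named the 2 most abundant genes of each list (given here for the myeloid lists; the other lists are given as sums) and those past the threshold with or without the block, the paralogs Lyz1 and Chil4, and the 3 genes most like Lyz2, Csf1r and S100a8; 1 gene that the rule names is not reported here. Other genes (Sftpc as a type II cell marker aside) were chosen after their values were seen.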

Additional observations from a re-analysis of the deposited data

How the results depend on the processing

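Among the 10 genes, 0 passed in either direction in any edgeR fit, and DESeq2 called 1 lower, Mrc1 (0 with the block, an alternative chosen after seeing the data). The count over all genes moved more: against 19 higher and 184 lower, DESeq2 gave 346 and 1377, no filter 37 and 282, the replicate block 0 and 53, and DESeq2 with the block 609 and 1697. Leaving out 1 library gave 0 to 5 higher and 0 to 159 lower, and leaving out both libraries numbered 1, 2 or 3 gave 3, 0 and 0 higher and 168, 0 and 0 lower. At an unadjusted p below 0.05 these fits gave 406 to 1048 and 1159 to 1779 genes. The lower ones were 159 and 91 without KLRG1-positive or KLRG1-negative library 1, and 0 to 4 without any other, where each such fit also has fewer libraries; the cause was not tested. Cd68, Mrc1, S100a8 and S100a9 had negative log2 fold changes in every fit run, of -1.21 to -0.76, -2.11 to -0.95, -1.08 to -0.17 and -1.53 to -0.37. The other 6 turned sign in at least 1 fit, and the cause was not tested. With 1 library left out, log2 fold changes ranged over -0.60 to 1.65 for Lyz2, -0.85 to 0.24 for Csf1r, -0.80 to 0.52 for Adgre1, -0.51 to 6.55 for Marco, -2.68 to 0.04 for Itgax and -0.76 to 0.43 for Chil3. Adgre1 turned to 0.02 without the filter and to 0.33 and 0.21 without both libraries numbered 1 or 3, Marco to -0.38 and Chil3 to 0.16 without both numbered 2, and Chil3 to 0.25 with the replicate block by edgeR and by DESeq2. Marco was not tested without both libraries numbered 1, where it failed the filter. In edgeR the block changed no call among the 10 genes, and in DESeq2 it ended that of Mrc1 (adjusted p = 0.0971). Whether a sort is free of macrophages or neutrophils cannot be read from these counts.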
